A study of Mus musculus with 451 samples.

Results

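Serpine2, Itm2a, Myoc and Lgals3 were described in 451 single cells from mouse tail tendon, as 4 of the 48795 gene symbols counted. The genes had been picked from values of these same cells because they marked cells lying between a progenitor-like and a tenocyte-like state, so how their levels fall along that axis is a description and not a finding. The cells came from the tail tendons of C57BL/6 mice aged 4 weeks and fell into 227 wild-type (WT) cells and 224 cells of mice lacking Mohawk homeobox (Mkx-/-), which encodes a homeodomain transcription factor active in tendon. Cells were captured singly on Fluidigm C1 high-throughput chips, and each cell has its own counts. Animals and chips are not named in the labels, so each genotype is 1 sample, no test between genotypes was made, and no difference below has a replicate check. Intervals are at 95% and exact, other than those of differences between shares of cells, which are Newcombe score intervals. They cover only the counting of reads, or of cells for shares, since reads amplified by PCR without molecular tags are not independent molecules and cells are not replicates.

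Tendon holds cells that renew the tissue and mature tenocytes that lay down and organise the collagen fibres. Tenomodulin (Tnmd) and fibromodulin (Fmod), a membrane glycoprotein and a small leucine-rich proteoglycan that binds collagen, are widely used marks of mature tenocytes. Serpine2 encodes protease nexin-1, a secreted inhibitor of thrombin, urokinase and other serine proteases. Itm2a encodes a membrane protein with a BRICHOS domain, a fold it shares with tenomodulin. Myoc encodes myocilin, a secreted glycoprotein with an olfactomedin domain that is best known from the trabecular meshwork of the eye. Lgals3 encodes galectin-3, a lectin that binds galactose-containing sugars and is also abundant in macrophages.

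On NCBIM37 (mm9), Serpine2 lies on chromosome 1 from 79790772 to 79855271 on the minus strand, Myoc on chromosome 1 from 164569281 to 164579824 on the plus strand, Lgals3 on chromosome 14 from 47987426 to 48005835 on the plus strand, and Itm2a on chromosome X from 104592438 to 104598715 on the minus strand. A search of their longest coding transcripts against that genome found 0 other places with at least 200 aligned bases at 90% identity or more, so none of the genes shares reads with a near-identical copy at that limit. Exons of Myoc overlap 7420461P10Rik, an antisense gene, and the strand used in counting is not given in the sources used here. Only 3 WT and 45 Mkx-/- reads fell on that neighbour, beside 16225 and 29215 on Myoc.

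The 250 bases before the start of each gene (RefSeq, GRCm38.p6) are shown because Serpine2, Itm2a and Myoc had higher correlations with each other from cell to cell than with Lgals3 in most sets of cells. Capitals mark the E-box letters CANNTG, a pattern read by basic helix-loop-helix factors such as scleraxis, searched on both strands.
Serpine2: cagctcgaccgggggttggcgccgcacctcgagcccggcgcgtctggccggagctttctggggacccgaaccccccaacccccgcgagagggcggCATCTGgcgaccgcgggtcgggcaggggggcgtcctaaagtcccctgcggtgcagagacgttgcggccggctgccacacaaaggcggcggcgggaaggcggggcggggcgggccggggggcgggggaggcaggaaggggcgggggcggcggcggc
Itm2a: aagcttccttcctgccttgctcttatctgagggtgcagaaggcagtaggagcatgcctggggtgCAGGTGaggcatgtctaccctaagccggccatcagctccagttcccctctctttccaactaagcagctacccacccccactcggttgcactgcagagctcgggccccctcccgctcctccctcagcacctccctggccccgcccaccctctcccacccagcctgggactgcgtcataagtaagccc
Myoc: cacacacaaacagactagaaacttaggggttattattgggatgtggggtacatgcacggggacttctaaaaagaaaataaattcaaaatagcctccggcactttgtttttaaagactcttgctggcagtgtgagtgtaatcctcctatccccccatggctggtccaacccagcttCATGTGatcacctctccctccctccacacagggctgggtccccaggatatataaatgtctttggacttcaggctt
Lgals3: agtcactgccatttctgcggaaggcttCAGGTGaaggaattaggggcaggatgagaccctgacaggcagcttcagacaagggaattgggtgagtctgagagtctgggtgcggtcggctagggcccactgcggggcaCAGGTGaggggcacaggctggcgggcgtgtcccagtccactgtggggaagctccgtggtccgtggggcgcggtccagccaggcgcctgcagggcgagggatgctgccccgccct
These windows are chr1:79858666-79858915 (minus strand) for Serpine2, chrX:107403361-107403610 (minus) for Itm2a, chr1:162638900-162639149 (plus) for Myoc and chr14:47373610-47373859 (plus) for Lgals3. The E-box letters stood 1 time in each of the Serpine2, Itm2a and Myoc windows and 2 times in that of Lgals3, and 66.2% of 32851 promoter windows of the same length hold them. The palindrome ACANNTGT, which contains the E-box letters, and the AP-1 letters TGANTCA stood in none of the 4 windows, against 6.31% and 6.75% of all windows. The windows differed in base composition. Serpine2 held 78.8% G and C, 34 CG pairs and 6 matches to the GC box GGGCGG (32.7% of all windows hold 1 or more), while Myoc held 46.8% G and C, 2 CG pairs, 0 GC boxes and 1 TATA box (TATAAA, in 12.4% of all windows) from 26 to 21 bases before its start. Itm2a and Lgals3 lay between, at 62.8% and 66% G and C, with 1 GC box each.

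Sequencing gave 13630536 reads for WT cells (median 51788 in a cell) and 14145394 for Mkx-/- cells (median 56121). Cells were split on Tnmd and Fmod alone. The score of a cell was the mean of log2(CPM + 1) of both genes, where CPM is reads scaled to a cell total of 1000000, and cells at 10 or more were called high and the rest low. The split was clear, with 4 WT and 3 Mkx-/- cells within 0.5 of the cut and the nearest cells at 9.99 and 10.3 in WT and at 9.998 and 10.1 in Mkx-/-. High cells numbered 78 of 227 in WT (34.4%, interval 28.2 to 40.9) and 84 of 224 in Mkx-/- (37.5%, 31.1 to 44.2), and the rest were low. High cells were sequenced more deeply, with medians of 81693 and 72897 reads against 41921 and 46389 in low cells. All 8 progenitor genes examined (Cd44, Thy1, Ly6a, Fstl1, Tppp3, Cd55, Scara5 and Emilin2) were past 2-fold higher in low cells of both genotypes and the 4 tenocyte genes that the split did not use (Col11a2, Col1a1, Col1a2 and Sparc) past 2-fold lower. Tnmd and Fmod, the other tenocyte genes, were lower by construction. Of all genes with at least 100 reads, 33.6% in WT and 23.5% in Mkx-/- cells were past 2-fold higher in low cells. Past 2-fold lower were 6.40% and 6.49%. Mkx itself was read at 33.8 CPM in WT against 15.5 CPM in Mkx-/- cells (log2 ratio -1.13, -1.37 to -0.89). The deleted part of Mkx is not given in the sources used here, so reads that remain do not check the labels.

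Serpine2, Itm2a and Myoc were higher in low than in high cells of both genotypes, and Lgals3 differed less and in opposite directions. The members had been chosen for this contrast, which is therefore given without a test. Myoc had a summed level of 2003 CPM in low and 327 CPM in high WT cells and of 3191 and 988 CPM in Mkx-/- cells, log2 ratios of 2.62 and 1.69. Serpine2 stood at 371 and 86.9 CPM in WT and at 344 and 74.6 CPM in Mkx-/- cells, log2 ratios of 2.09 and 2.21. Itm2a stood at 206.1 and 73.9 CPM in WT and at 252 and 165.6 CPM in Mkx-/- cells, log2 ratios of 1.48 and 0.60. For these 3 genes the difference kept its direction in every setting tried, none of which replaced the scaling to total reads. Lgals3 stood at 1023 and 717 CPM in WT cells (log2 ratio 0.51, 0.46 to 0.57) and at 1311 and 1436 CPM in Mkx-/- cells (-0.13, -0.17 to -0.09), so low cells held more in WT and high cells more in Mkx-/-. In WT cells 3 of the 4 genes were past 2-fold higher in low cells, where 33.6% of 8917 genes with at least 100 reads were past 2-fold higher and 6.40% lower, and in Mkx-/- cells 2 of the 4, where 23.5% of 9040 genes were higher and 6.49% lower. The median over all these genes was itself 0.65 in WT and 0.43 in Mkx-/- cells. The 6 tenocyte genes summed to 309920 CPM in high and 26149.5 CPM in low WT cells, and the part of that difference in the CPM of other genes was not tested.

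**Figure D1:**
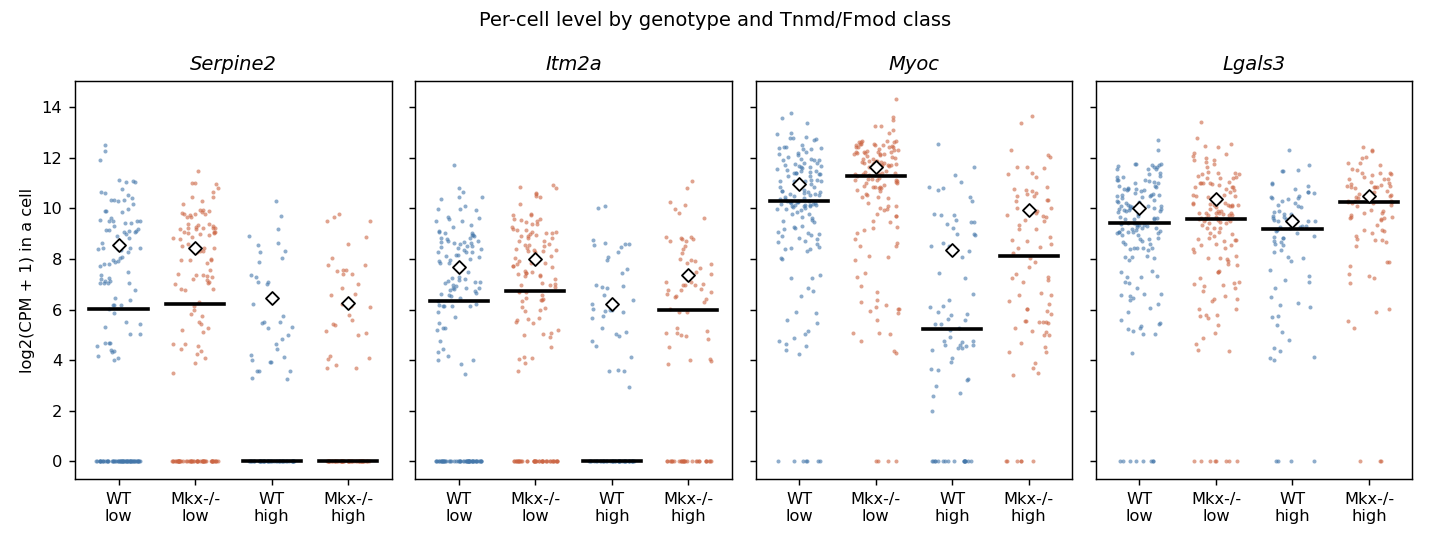
Level of Serpine2, Itm2a, Myoc and Lgals3 in each cell as log2(CPM + 1), by genotype and Tnmd/Fmod class. Points are cells, black bars are medians over cells and white diamonds are the level from summed reads; many cells stood at 0 for Serpine2 and Itm2a, while most cells had Lgals3.

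The cells of a class did not share 1 level, and the classes overlapped for each gene. In WT low cells Myoc ran from 0 to 13873 CPM with a median of 1241 CPM, and in WT high cells from 0 to 5988 CPM with a median of 36.5 CPM. In Mkx-/- low cells it ran from 0 to 20429.5 CPM with a median of 2505 CPM, and in Mkx-/- high cells from 0 to 12881 CPM with a median of 281 CPM. Myoc was thus read in most cells of every class, and what differed was how many cells held much of it: 86.6% of WT low cells reached 100 CPM against 34.6% of WT high cells. Serpine2 was patchy, with a median of 63.3 CPM in WT low cells (range 0 to 5861), of 73.7 CPM in Mkx-/- low cells (0 to 2833) and of 0 in the high cells of both genotypes, whose highest cells held 1261 and 880.1 CPM. The leading 23 WT cells held 63.01% of all WT Serpine2 reads and the first of them 9.59%. Itm2a had medians of 78.99 CPM in WT low cells (0 to 3366) and 104.8 CPM in Mkx-/- low cells (0 to 1917), of 0 in WT high cells (0 to 1081) and of 61.7 CPM in Mkx-/- high cells (0 to 2154). Lgals3 was the most evenly spread of the 4 in both genotypes, with 34.1% of its WT and 40.1% of its Mkx-/- reads in the 23 leading cells. Its medians were 688 CPM in WT low cells (0 to 6701), 578 CPM in WT high cells (0 to 5121), 775 CPM in Mkx-/- low cells (0 to 10776) and 1231 CPM in Mkx-/- high cells (0 to 5554).

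Along the score of WT cells, Serpine2, Itm2a and Myoc had their lowest levels past the cut, and lower ones at 12 and over than at 10 to 12. Myoc stood at 2041, 1620.1 and 2437 CPM in WT cells scoring under 4, 4 to 6 and 6 to 8, at 518 CPM at 10 to 12 and at 67.4 CPM (58.1 to 77.7) at 12 and over. In the same last 2 ranges, of 42 and 36 WT cells, Serpine2 stood at 145.99 and 6.78 CPM (4.08 to 10.6) and Itm2a at 113.4 and 20.3 CPM (15.4 to 26.3). In Mkx-/- cells scoring 12 and over (58 cells) Myoc, Serpine2 and Itm2a stood at 801, 80.8 and 139.2 CPM. In these cells 11.1% of WT and 50% of Mkx-/- cells reached 100 CPM of Myoc, 2.78% and 37.9% reached it of Itm2a, and 2.78% and 17.2% of Serpine2, whose median was 0 in both genotypes. The ranges do not hold the same mix of scores, since Mkx-/- high cells had a median score of 12.38 and WT high cells of 11.96. Between 8 and 10 there were 2 WT and 9 Mkx-/- cells, and there Myoc (6386 and 6197 CPM), Serpine2 (2264 and 530.4 CPM) and Itm2a (389 and 537 CPM) had their highest levels of any range in both genotypes. With so few cells, that range is not ordered against the others. Lgals3 varied less along the score, between 712 and 1318 CPM in WT and between 1144 and 1914 CPM in Mkx-/- cells. In WT cells its levels too were lowest past the cut (712 and 723 CPM), and in Mkx-/- cells its lowest level was at 6 to 8.

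**Figure D2:**
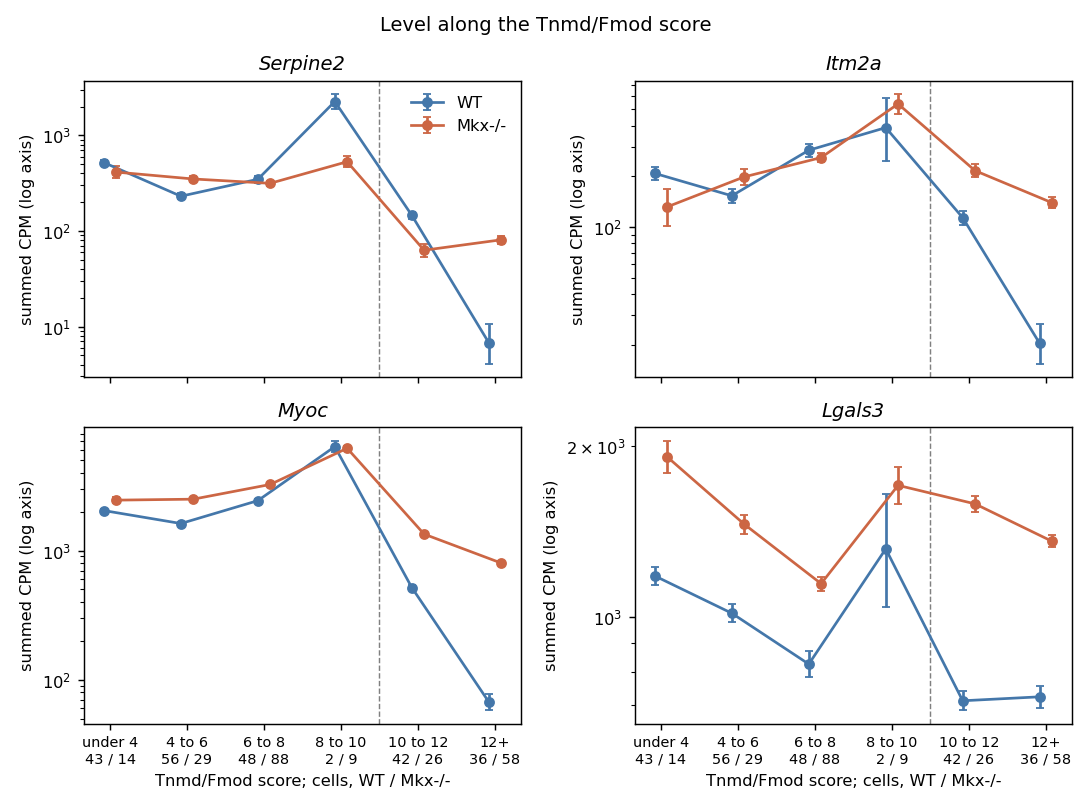
Summed level in CPM (log axis) in cells grouped by Tnmd/Fmod score, with exact Poisson intervals, for WT and Mkx-/- cells; the dashed line is the cut at 10 and the numbers under the axis are cells of each genotype. The highest-scoring WT cells held 6.78 CPM of Serpine2, 20.3 CPM of Itm2a and 67.4 CPM of Myoc, and Lgals3 stayed between 712 and 1318 CPM over the ranges in WT and between 1144 and 1914 CPM in Mkx-/- cells.

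Between genotypes, Itm2a, Myoc and Lgals3 were higher in Mkx-/- cells and Serpine2 was slightly lower. Over all cells Serpine2 had a summed level of 233 CPM in WT cells and of 206.4 CPM in those lacking Mkx, Itm2a of 142.03 and 207.7 CPM, Myoc of 1190.3 and 2065 CPM and Lgals3 of 875 and 1375 CPM. The log2 ratios were -0.18 (-0.25 to -0.10) for Serpine2, 0.55 (0.46 to 0.63) for Itm2a, 0.80 (0.77 to 0.82) for Myoc and 0.65 (0.62 to 0.69) for Lgals3. None of the 4 was past 2-fold, where 7.23% of 10963 genes with at least 100 reads were past it higher and 6.12% lower, and the median over those genes was 0.05. Among them 10.4% lay above Myoc, 13.8% above Lgals3 and 17.2% above Itm2a, so none stood at an extreme of all genes.

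The genotype ratios were larger in high than in low cells for the 3 genes that were higher. In low cells they were 0.29 (0.19 to 0.39) for Itm2a, 0.67 (0.64 to 0.70) for Myoc and 0.36 (0.31 to 0.40) for Lgals3, with none of the 4 genes past 2-fold, beside 7.47% of 9332 genes higher and 6.65% lower. In high cells they were 1.16 (1.01 to 1.32) for Itm2a, 1.60 (1.53 to 1.67) for Myoc and 1.003 (0.95 to 1.05) for Lgals3. These 3 of the 4 were past 2-fold higher there, where 13.8% of 8368 genes were past 2-fold higher and 6.62% lower. High cells as a whole leaned the same way, with a median over genes of 0.21, and another scaling lowered every ratio in high cells by 0.14 to 0.19, which put Lgals3 between 0.81 and 0.87 and so short of 2-fold. Totals without the 20 leading genes put Itm2a at 0.97, also short of 2-fold, and the other 2 scalings at 1.01 and 1.03. Serpine2 was at -0.11 (-0.19 to -0.03) in low and -0.22 (-0.39 to -0.05) in high cells. Neither direction was stable. In high cells 1 WT cell held 27.4% of the WT reads, and the ratio was 0.049 without the leading cell of each genotype, 0.23 after thinning to 20000 reads and 0.19 with classes from Fmod alone. In low cells a floor of 2500 genes in a cell put it at 0.053, and leaving out the leading cells at -0.020. The low classes were not alike in score, with medians of 5.33 in WT and 6.57 in Mkx-/- low cells. Cells scoring under 4 numbered 43 in WT and 14 in Mkx-/-, and those at 6 to 8 numbered 48 and 88. The part of this difference in the ratios was not tested. Whether the genotype effect itself differs between low and high cells was not tested, since there is 1 sample for each genotype.

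**Figure D3:**
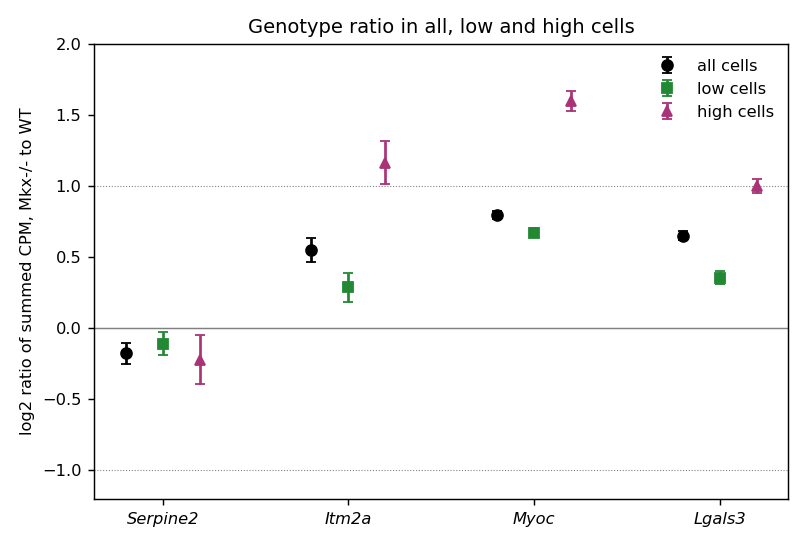
Log2 ratio of summed CPM, Mkx-/- to WT, for each gene in all, low and high cells with exact 95% intervals for counting error; dotted lines mark 2-fold. Itm2a, Myoc and Lgals3 lie above 0 in all 3 sets and highest in high cells (1.16, 1.60 and 1.003), and Serpine2 lies just under 0.

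The share of cells carrying a gene moved less than its level. Itm2a had a read in 58.6% of the 227 WT cells and 68.75% of the 224 Mkx-/- cells, a difference of 10.2 percentage points (1.28 to 18.8), and of 13.2 points (4.03 to 22.1) after each cell was thinned to 20000 reads. In high cells that difference was 17.9 points (2.74 to 32.1), or 25 points (9.65 to 38.7) when thinned. Myoc had a read in 89.4% of WT and 95.5% of Mkx-/- cells. In high cells it was read in 61 of 78 against 78 of 84, a difference of 14.7 points (3.84 to 25.7). After thinning, the difference in Myoc was 5.84 points (-1.19 to 12.8) over all cells and 19.8 points (5.23 to 33.3) in high cells. Serpine2 was read in 55.9% and 54.5%, a difference of -1.48 points (-10.6 to 7.64), and Lgals3 in 94.7% and 95.1%. A read does not make a cell a carrier, since 92 WT low cells held 1 to 3 reads of Tnmd. At 100 CPM or more the high-class shares were 34.6% and 59.5% for Myoc, 21.8% and 42.9% for Itm2a, 76.9% and 91.7% for Lgals3 and 19.2% and 19.05% for Serpine2 in WT and Mkx-/- cells. The differences in Itm2a, Myoc and Lgals3 were therefore seen in the number of high cells that reached 100 CPM. For Serpine2 the intervals allow a shift of either sign.

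Over all cells of a genotype, Serpine2, Itm2a and Myoc had higher correlations with each other than with Lgals3. Over the 227 WT cells Spearman's rho was 0.46 for Serpine2 and Myoc, 0.42 for Itm2a and Myoc and 0.34 for Serpine2 and Itm2a. Over the 224 Mkx-/- cells the same pairs had 0.39, 0.30 and 0.23. The 3 pairs with Lgals3 lay between 0.14 and 0.16 in WT and between 0.04 and 0.14 in Mkx-/- cells. These values are descriptions over cells of 1 sample, which differ in depth. The genes had also been picked from these same cells to mark 1 state, and looking within a class does not undo that choice. Within low cells the 3 pairs among Serpine2, Itm2a and Myoc stood at 0.28 to 0.39 for WT and 0.19 to 0.32 for Mkx-/-. Within high cells these pairs stood at 0.34 to 0.44 and 0.26 to 0.32. The pairs with Lgals3 stood at 0.07 to 0.14 in WT low cells, 0.12 to 0.20 in Mkx-/- low cells, 0.14 to 0.20 in WT high cells and 0.12 to 0.17 in Mkx-/- high cells. In Mkx-/- low cells the ranges overlap, with Serpine2 and Lgals3 at 0.20 and Serpine2 and Itm2a at 0.19. In counts of cells, of the 15 WT high cells with at least 100 CPM of Serpine2, 11 (73.3%) also reached 100 CPM of Myoc, against 25.4% of the other high cells. For Mkx-/- high cells the shares were 75% and 55.9%. In low cells, where Myoc was common, the shares were 91.3% and 82.5% in WT and 92.8% and 80.3% in Mkx-/- cells. All 3 genes reached 100 CPM together in 38 WT low cells (25.5%), 40 of 140 Mkx-/- low cells (28.6%), 6 of 78 WT high cells (7.69%) and 8 of 84 Mkx-/- high cells (9.52%). None of the 3 reached it in 42 of 78 WT high cells (53.8%) and in 22 of 84 Mkx-/- high cells (26.2%).

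**Figure D4:**
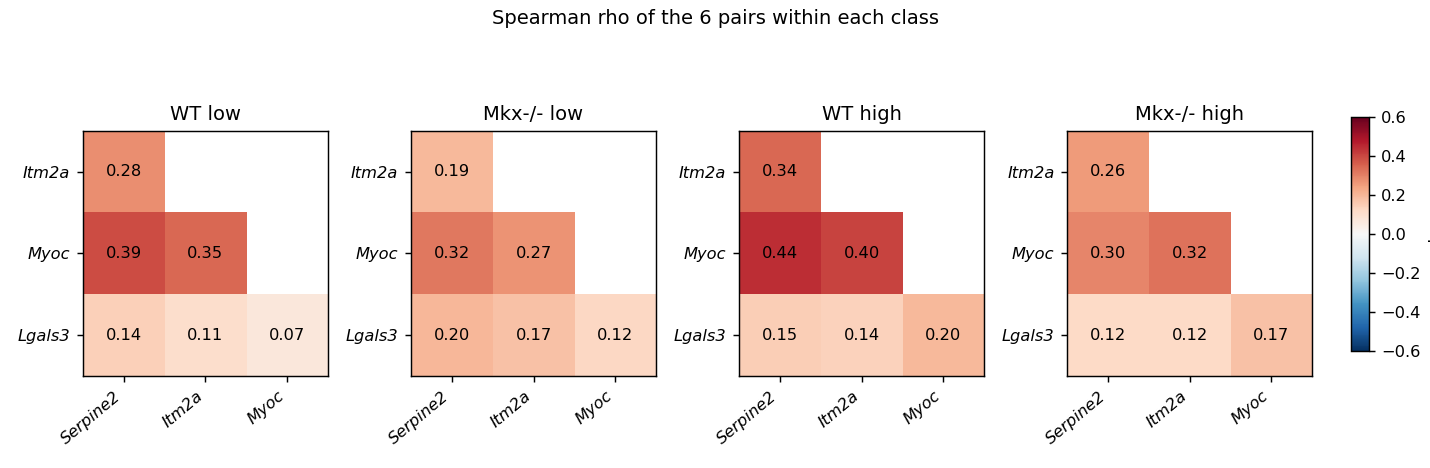
Spearman's rho over cells for the 6 pairs of genes, within low and high cells of each genotype. The 3 pairs among Serpine2, Itm2a and Myoc lie between 0.19 and 0.44, and the pairs with Lgals3 between 0.07 and 0.20.

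Against the progenitor and tenocyte genes the 4 members kept neither company throughout. The members had been picked from these cells for marking cells between a progenitor-like and a tenocyte-like state. The signs below follow in part from that choice and are a description. Within low cells Serpine2, Itm2a and Myoc ran opposite to all 8 progenitor genes in both genotypes, and Lgals3 to 7 of 8, Cd44 being the exception (0.12 in WT and 0.11 in Mkx-/- cells). The strongest of these were Itm2a with Fstl1, a secreted follistatin-like glycoprotein (-0.51 in Mkx-/- low cells), Itm2a with the hyaluronan receptor Cd44 (-0.46 in WT low cells), Lgals3 with the scavenger receptor Scara5 (-0.44 in Mkx-/- low cells), Itm2a with the surface antigen Ly6a (-0.43 in Mkx-/- low cells) and Serpine2 with the complement regulator Cd55 (-0.43 in WT low cells). Within high cells the sign turned, and Myoc had a positive rho with 8 of 8 progenitor genes in WT and 7 of 8 in Mkx-/- cells, Serpine2 with 7 of 8 and 8 of 8, Itm2a with 5 of 8 and 8 of 8, and Lgals3 with 8 of 8 and 4 of 8. There all 4 members ran opposite to all 6 tenocyte genes in both genotypes, from Serpine2 and Sparc at -0.48 in WT to Lgals3 and Tnmd at -0.01 in Mkx-/- cells. Tnmd and Fmod define the split, and the part of the abundant collagen reads in these signs was not tested. The share of all genes with the same signs was not computed in low or high cells. The counts of signs in both classes therefore have no background, and the turn of sign is not set apart from that of other genes. Within low cells the signs differed by member and genotype, with medians of -0.17 to 0.16 over the 6 tenocyte genes. In WT low cells Itm2a and Lgals3 had a negative rho with all 6, Serpine2 with 5 and Myoc with 4. In Mkx-/- low cells Itm2a and Lgals3 had a positive rho with 5 of 6, Myoc with 4 and Serpine2 with 3. For Itm2a the highest were both chains of type I collagen, Col1a1 (0.40, against -0.13 in WT low cells) and Col1a2 (0.34, against -0.01).

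**Figure D5:**
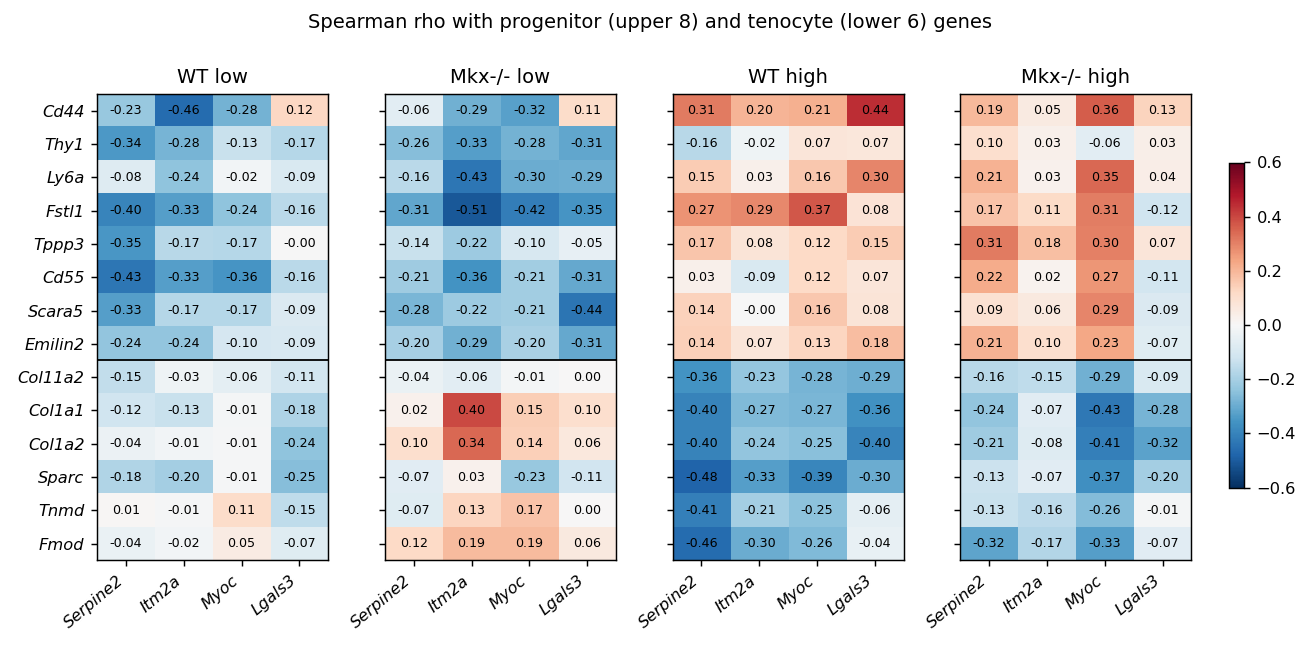
Spearman's rho over cells of each member (columns) with 8 progenitor genes (above the line) and 6 tenocyte genes (below it), within low and high cells of each genotype. Values for Serpine2, Itm2a and Myoc are negative with all 8 progenitor genes in low cells, and values for all 4 members are negative with all 6 tenocyte genes in high cells. The members were picked from these cells for marking cells between a progenitor-like and a tenocyte-like state.

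The genes whose pattern was most like that of each member were sought among the 4711 genes that at least 20% of cells carried in both genotypes, by the mean of the rho in WT and the rho in Mkx-/- cells. Gelsolin (Gsn), which severs actin filaments, stood first for 3 members, at 0.59 with Myoc, 0.45 with Serpine2 and 0.37 with Itm2a. Within the 4 sets of low and high cells Gsn kept a positive rho with each of them, from 0.17 to 0.56. After Gsn, Myoc was most like the matrix fibulin Fbln2 (0.51), Ugdh, which makes the sugar nucleotide for hyaluronan and proteoglycans (0.45), Krtdap (0.44) and Col3a1, a chain of type III collagen (0.43). The link to Col3a1 was not seen within low cells (-0.03 and -0.06) and was high within high cells (0.49 and 0.60). Serpine2 was most like Gsn, Myoc, Ugdh, the BMP antagonist Nbl1 (0.29) and Rps23 (0.29), and Itm2a like Gsn, Myoc (0.36), the globin Cygb (0.30), Serpine2 (0.28) and Krtdap (0.27). Least like them were Wif1, an inhibitor of WNT ligands, and Sparc, a collagen-binding matrix protein, for Serpine2 (-0.31 and -0.30) and for Myoc (-0.47 and -0.49), with Loxl2 the lowest for Itm2a (-0.24) and among the lowest for Serpine2 (-0.29). Within low cells Sparc stood at -0.006 (WT) and -0.23 (Mkx-/-) with Myoc, and at -0.18 and -0.07 with Serpine2. Wif1 stood there at -0.15 and -0.09 with Myoc, and at -0.16 and -0.08 with Serpine2. Within high cells these values lay between -0.10 and -0.48. Serpine2 and Ugdh had a rho of 0.04 in WT low cells and of 0.21 to 0.45 in the other sets. Myoc ranked 2 of 4710 for both Serpine2 and Itm2a. Since the members had been picked from these cells to mark the same state, ranks among them are a description. Lgals3 had a rho of 0.14 with Itm2a, 0.14 with Serpine2 and 0.10 with Myoc, and 3.57%, 8.60% and 17.9% of the 4710 genes stood above it in these lists.

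The genes most like Lgals3 were Sqstm1, the autophagy receptor p62 (0.38), Lmna, which encodes the nuclear lamins A and C (0.30), Tnfrsf12a, the receptor of the cytokine TWEAK (0.29), Lrrfip1 (0.29) and the AP-1 factor Fosl1 (0.29). All 5 had a positive rho with Lgals3 in each of the 4 sets of cells, from 0.14 to 0.48. Sqstm1 also stood higher in Mkx-/- cells, at 2821 CPM against 1963 CPM. Least like it were Rorb (-0.25), the proteoglycan decorin (Dcn, -0.24) and Igfbp5 (-0.23). Dcn and Igfbp5 ran opposite to Lgals3 within low cells (-0.27 to -0.40) and near 0 within high cells (-0.06 to 0.10).

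Relatives and partners of each member did not share 1 course. Of 26 genes of the plasminogen activator and thrombin system, 18 had 100 reads, and of these 2 were past 2-fold higher in Mkx-/- cells and 1 lower, with a median log2 ratio of 0.09. Over all genes 7.23% were past 2-fold higher and 6.12% lower, and counts of 1 or 2 genes, here and in the smaller lists that follow, are too few to set a list apart from that. The higher were Serpinb2, an intracellular inhibitor of urokinase (3.79, from 11 WT reads), and F2r, the thrombin receptor PAR1 (1.25), and the lower was Tfpi, the tissue factor pathway inhibitor (-1.43). Urokinase itself (Plau), a target of protease nexin-1, was at 0.58, tissue plasminogen activator (Plat) at -0.09, and Lrp1, a receptor that takes up the inhibitor with its protease, at 0.06. F2r was higher in Mkx-/- high cells (2.69, from 34 reads against 240) and not in low cells (-0.26). Of 6 BRICHOS genes beside Itm2a, 3 had 100 reads and none was past 2-fold: the close paralogs Itm2b and Itm2c stood at 0.10 and -0.02. The other was Tnmd, which the split used and which lay above 0. In low cells 1 of the 3 was past 2-fold higher in Mkx-/- cells, where 7.47% of 9332 genes were. Tnmd is 1 of these 3 and part of the score, in which the low classes were not alike. It had a read in 80.5% of WT and 95.7% of Mkx-/- low cells. Of 12 olfactomedin genes beside Myoc, 8 had 100 reads and 1 was past 2-fold higher, Gldn, which encodes gliomedin of the nodes of Ranvier (2.32, from 22 WT reads). Among the others, Olfm1 stood at 0.52 and Olfml2a at -0.22. Of 9 galectin genes and relatives found, 6 had 100 reads. Lgals3bp, which encodes a secreted ligand of galectin-3, was past 2-fold higher (1.03, 30.5 against 62.1 CPM, and 0.95 with totals without the 20 leading genes, which ends that call), Lgals4 past 2-fold lower (-1.26, from 120 and 52 reads), and the abundant Lgals1 stood at 0.26.

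Markers of other cell types were given beside the members because macrophages carry Lgals3. The 10 blood cell genes had a summed level of 156.3 CPM in WT and of 117.4 CPM with Mkx lost, ranging over cells from 0 to 17504 and from 0 to 10848 CPM with medians of 0, and Itgam and Fcgr1 stood at 0 reads in Mkx-/- cells. A read of Ptprc, Csf1r or Adgre1 was found in 19 WT and 8 Mkx-/- cells, which held 10.7% and 6.29% of the Lgals3 reads, and Lgals3 stood at 837 CPM in those WT cells and at 879 CPM in the rest. Without them the genotype ratio of Lgals3 was 0.65, as with them, and those of Serpine2, Itm2a and Myoc were -0.14, 0.55 and 0.85. The 3 synovial lining genes, of which Prg4 (lubricin) gives nearly all reads, had 5789 CPM (WT) and 7306 CPM (Mkx-/-) and ran with Serpine2 in low cells (rho 0.33 and 0.37), with Myoc (0.24 and 0.32), with Itm2a (0.13 and 0.23) and with Lgals3 (0.22 and 0.21). Their part in the values of the 4 genes was not tested. Endothelial, mural and Schwann genes in WT summed to 89.1, 242 and 154.4 CPM and in Mkx-/- cells to 31.4, 223.5 and 229.6 CPM, cartilage genes to 298 and 222.4 CPM, and skeletal muscle genes to 1.83 and 0.57 CPM, with Acta1 and Myod1 at 0 reads in both. Of the Schwann reads, 41.9% in WT and 72.5% in Mkx-/- cells lay in 1 cell, as did 32.5% and 13.7% of the endothelial reads. The Schwann sums therefore rest largely on single cells, and the genotypes are not compared on them. Because Itm2a is X-linked, sex-linked genes were read too. Xist had a read in 0 WT cells and 1 Mkx-/- cell, and 67.8% of WT and 73.2% of Mkx-/- cells had a read of a Y-linked gene.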

How the data were processed

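Single tail tendon cells were captured on Fluidigm C1 HT chips. The values the authors deposited are raw counts of reads for every gene in every cell. The methods of the authors give quality filtering with AfterQC, alignment with bowtie2 to mm9 and counting with featureCounts, while the submitters' processing notes name mm10. Coordinates of genes are given here on mm9, and those of the promoter windows on GRCm38.p6. bowtie2 does not split reads over introns, and a read is not a molecule. Genotypes came from the labels. No cell was removed and 0 columns were left unused. No 2 cells had identical counts.

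Reads were summed over the cells of a genotype and class, divided by all reads and scaled to CPM with Python 3.11.15, numpy 2.4.6, scipy 1.17.1 and pandas 2.3.3. Sums have exact Poisson, ratios exact conditional binomial, shares Clopper-Pearson and differences of shares Newcombe intervals at 95%. Past 2-fold means a log2 ratio of 1 or more in size among genes with at least 100 reads over both arms. Correlations are Spearman's over CPM. Named genes were the 4 members, their lists, and for each member the 5 genes most and the 3 least like it. The ratio and correlation code was tested on simulated data. edgeR 4.0.16 and DESeq2 1.42.0 (R 4.3.3) gave scaling factors of the 2 summed libraries only, and no test was run with them. Copies were sought with blastn 2.17.0. The members and gene lists were chosen with earlier results of these data known.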

Additional observations from a re-analysis of the deposited data

Results flagged for a closer look

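Lgals3 ran in opposite directions in the genotypes when low and high cells were compared. The log2 ratio of low to high cells was 0.51 (0.46 to 0.57) in WT cells, where low cells held more, and -0.13 (-0.17 to -0.09) in Mkx-/- cells, where high cells held more. Each direction was kept in all 8 alternatives, from 0.37 to 0.59 in WT and from -0.25 to -0.11 in Mkx-/- cells. None of these replaced the scaling to total reads, so they cannot show whether the directions depend on it. The 6 tenocyte genes summed to 309920 CPM in high and 26149.5 CPM in low WT cells. In Mkx-/- cells they summed to 223397 and 31988.1 CPM. The part of these reads in the directions of Lgals3 was not tested. The difference between the genotypes was not tested, since each genotype is 1 sample. Over all genes WT cells had a median of this ratio of 0.65, with 57.6% of genes above Lgals3, and Mkx-/- cells one of 0.43, with 78.6% above it.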

How the results depend on the processing

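With 1 sample per genotype no alternative has a test, so a value is said to move when it leaves the counting interval of the reported value, or, for a correlation, by more than 0.1. Of 337 values recomputed under alternatives, 242 stayed, 91 moved and 4 reversed. All 4 reversals were of the genotype ratio of Serpine2: it was 0.053 in low cells among cells with at least 2500 genes, and in high cells 0.23 after thinning to 20000 reads, 0.049 without the leading cell of each genotype and 0.19 with classes from Fmod alone. The cause was not tested.

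Genotype log2 ratios over all cells of Serpine2, Itm2a, Myoc and Lgals3, in that order, were -0.34, 0.36, 0.57 and 0.47 as the mean of per-cell CPM, -0.28, 0.39, 0.58 and 0.46 after thinning, and -0.055, 0.83, 0.96 and 0.70 in cells with at least 2500 genes. Totals without the 20 leading genes gave -0.25 for Serpine2, 0.72 for Myoc and 0.58 for Lgals3. Myoc stood at 0.83 without the leading cell of each genotype and at 0.85 without cells carrying blood markers, an alternative chosen after seeing the data.

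Low-to-high log2 ratios in WT cells became 2.33 for Serpine2, 2.35 for Myoc and 0.39 for Lgals3 as the mean of per-cell CPM, and 2.44, 1.65, 2.42 and 0.37 for Serpine2, Itm2a, Myoc and Lgals3 after thinning. In Mkx-/- cells they became 2.06, 0.42, 1.53 and -0.24 as the mean of per-cell CPM and 1.93, 0.49, 1.55 and -0.25 after thinning. With classes from Fmod alone, Myoc was 2.69 and Lgals3 0.59 in WT, and Serpine2 1.82, Itm2a 0.43, Myoc 1.38 and Lgals3 -0.19 in Mkx-/- cells. Myoc in WT and Mkx-/- cells was 2.496 and 1.55 with classes from Tnmd alone, 2.51 and 1.55 with the cut at 9, 2.53 and 1.76 with the cut at 11, and 2.38 and 1.62 without cells carrying blood markers, where Lgals3 in WT was 0.41. Without cells within 1 of the cut, also chosen after seeing the data, Serpine2 in WT was 2.26 and Myoc in Mkx-/- cells 1.74.

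Genes past 2-fold between genotypes numbered 1464, 4260 with a minimum of 20 reads, 256 with 500 reads and 3457 with no minimum and a pseudocount of 1 CPM. The minimum changes how many genes are counted, 15560, 6261 and 25841 against 10963. The split of higher against lower was 54.2% higher, and 47.4%, 67.6% and 44.9% under these 3 settings. The median rho of the pairs among Serpine2, Itm2a and Myoc stayed between 0.35 and 0.45 in WT and between 0.27 and 0.34 in Mkx-/- cells. Shares of high cells moved by less than their intervals. Depth limits Serpine2 and Itm2a, for which 36 and 31 WT cells held only 1 to 3 reads. No paired analysis was possible because each genotype is 1 sample and no label pairs cells.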
